A study of Mus musculus with 6 samples.

Results

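The CPN-/- CRY2 libraries (2) were compared with the CPN-/- libraries (2), and these 4 libraries are the members, out of 6 in the series. They were chosen by the submitters' sample titles. CPN-/- cells are mouse embryonic fibroblasts that lack CRY1, CRY2, PER1, PER2, NR1D1 and NR1D2, and all libraries of the series share this genotype (Cry1/2-/-, Per1/2-/-, Nr1d1/2-/-). The CPN-/- CRY2 line carries mouse Cry2 on a viral vector, under a viral promoter, and was grown from a single colony selected with blasticidin, so that what CRY2 changed and what distinguished this colony from its parent cannot be told apart. Both lines were grown in high-glucose DMEM with fetal bovine serum, and 2 independent RNA preparations of each line were sequenced. The sources used here do not say whether these came from separate cultures, and the p-values measure the spread between such preparations. The remaining 2 libraries, of the CPN-/- CRY1 line, entered the shared estimate of the spread and one direct comparison at the end. The question was which gene programs outside glycolysis differed between the lines, and whether each could be told from a trend with transcript length that ran between the libraries.

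CRY proteins are transcriptional repressors of the circadian clock. They bind the activator pair CLOCK-BMAL1, which acts on E-box elements, and so lower the output of genes such as Per1, Per2 and Dbp. PER proteins are partners of CRY in the same complex, and NR1D1 and NR1D2 repress Bmal1 and Cry1 through a second loop. Both PER and NR1D proteins are absent here, so the comparison is one of cells with and without CRY2 in the absence of the other repressors.

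The 4 libraries held between 25957409 and 31416943 counts, and 14069 of 27179 genes were tested. Levels are given as CPM, counts divided by the TMM-scaled library size in units of 1000000, for libraries 1 and 2 of a line in this order. A gene was called lower or higher in CPN-/- CRY2 when its p in the quasi-likelihood test of edgeR, adjusted by Benjamini-Hochberg over all tested genes, was under 0.05. Of 11 fibroblast markers, 9 were tested. Vim, Col1a1, Col1a2 and Fn1 were abundant, with at least 27587 counts in each library, whereas Thy1 had 3 to 7 counts and Lum 0 or 1, so that these 2 defining markers were absent or nearly so. The only called marker among the 9 was Dcn, the proteoglycan decorin, which rose from 0.723 and 0.921 CPM to 2.24 and 2.19 CPM, a log2 fold change of 1.44 (SE 0.30, adjusted p = 0.039). All 9 lay above 0 with a median of 0.48. With the trend on transcript length removed 6 were called higher and 0 lower, with a median of 0.41. In that fit 10.7% of all genes with a known length were higher and 6.87% lower. The macrophage markers Ptprc, Adgre1, Itgam, Tyrobp and Fcgr3 had at most 2 counts in any of the 4 libraries. The others of that list were counted, Cd68 with 56 and 46 counts in CPN-/- and 44 and 49 in CPN-/- CRY2. Lyz2 had 77 and 79 against 60 and 31 counts, and Csf1r 10 and 4 against 8 and 6. Epithelial markers had at most 22 counts. Library 2 of CPN-/- CRY2 held 22 counts of Krt14, 13 of Krt5 and 9 of Krt18. These keratin genes had 0 or 1 counts in each of the other libraries.

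The 2 CPN-/- libraries differed by transcript length. The log2 difference of library 2 minus library 1 had a Spearman correlation of −0.62 with the length of the longest transcript over 13246 genes, which share their libraries and are not independent. The same correlation was −0.26 between the CPN-/- CRY2 libraries. The log2 fold change of CPN-/- CRY2 against CPN-/- correlated with length by 0.39, and by 0.07 when the CPN-/- CRY2 mean was set against CPN-/- library 1 alone and 0.51 against library 2 alone. The genes were cut into 10 bins of equal number by length. In the bin of shortest genes, with transcripts of 62 to 1256 bases, the median log2 fold change was −0.20, and in that of the longest, from 6710 bases upward, it was 0.31. A second fit removed each library's own loess curve on length, after which the correlation was 0.04 and the medians were −0.01 and 0.07. Below, the medians of most gene lists are given before and after this removal, and for several lists of short or long genes also beside the median difference between the CPN-/- libraries.

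**Figure D1:**
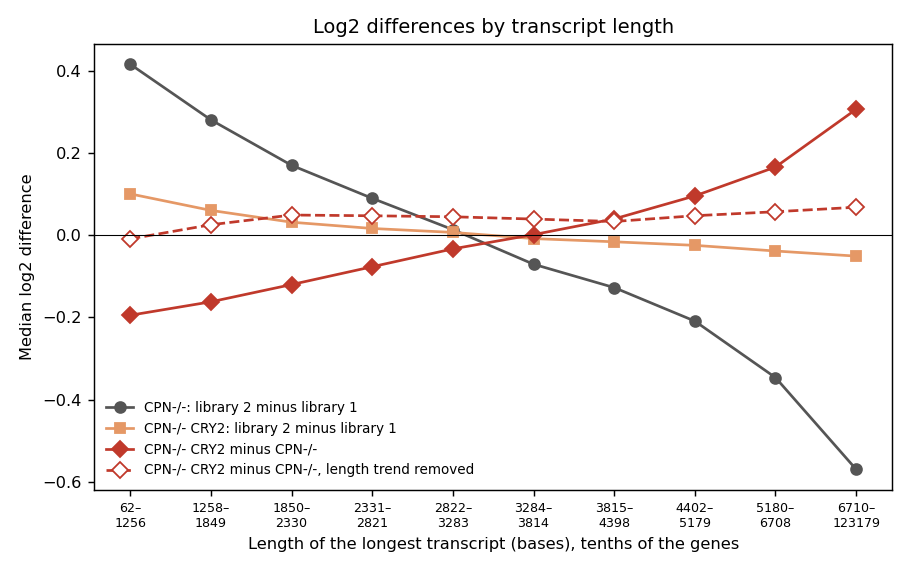
Median log2 difference (vertical axis) in 10 bins of 13246 genes ordered by the length of the longest transcript in bases (horizontal axis), within each line (library 2 minus library 1) and between the lines before and after the length trend was removed. Within CPN-/- the medians ran from 0.42 in the shortest to −0.57 in the longest genes, and between the lines from −0.20 to 0.31, while after removal they lay between −0.01 and 0.07.

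In the fit without length removal, 574 genes were called lower (4.08% of those tested) and 363 higher (2.58%) in CPN-/- CRY2. With the length trend removed, 910 of the 13246 genes with a known length were lower (6.87%) and 1419 higher (10.7%). Removal thus raised the number of calls over all genes, and that of higher calls most. The counts of gene lists in each fit are to be read beside the shares of that fit. Of the called genes with a known length, 552 of 556 lower and 351 of 354 higher genes were called in the same direction after removal, and 0 turned. The 4 lower genes that lost their call were 4930562F07Rik, Gm6644, Gprc5a and Mmp3, with transcripts of 830 to 2083 bases, and the 3 higher ones included Slc25a32 and Speg, with transcripts of 5905 and 10801 bases; these genes were named after their values were seen. For Speg, a muscle kinase gene with a transcript of 10801 bases, the log2 fold change went from 0.42 to 0.03. The number of calls depended on the libraries in the fit. It was 199 without CPN-/- CRY2 replicate 1, 204 without its replicate 2, 466 and 463 without CPN-/- CRY1 replicate 1 and replicate 2, and 8046 and 3185 without CPN-/- replicate 1 and replicate 2. The last pair leaves a single CPN-/- library, which is then assumed to vary like the libraries of the other lines, and its length curve enters the comparison in full. The same held for the gene lists below. Of the 38 lists with a call, 36 had fewer calls without either CPN-/- CRY2 library, and 10 and 9 then had 0, without replicate 1 and replicate 2. Leaving out either CPN-/- CRY1 library gave fewer calls in 29 lists and 0 calls in 3, and leaving out either CPN-/- library gave more in 37, the exception being the chemokines.

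**Figure D2:**
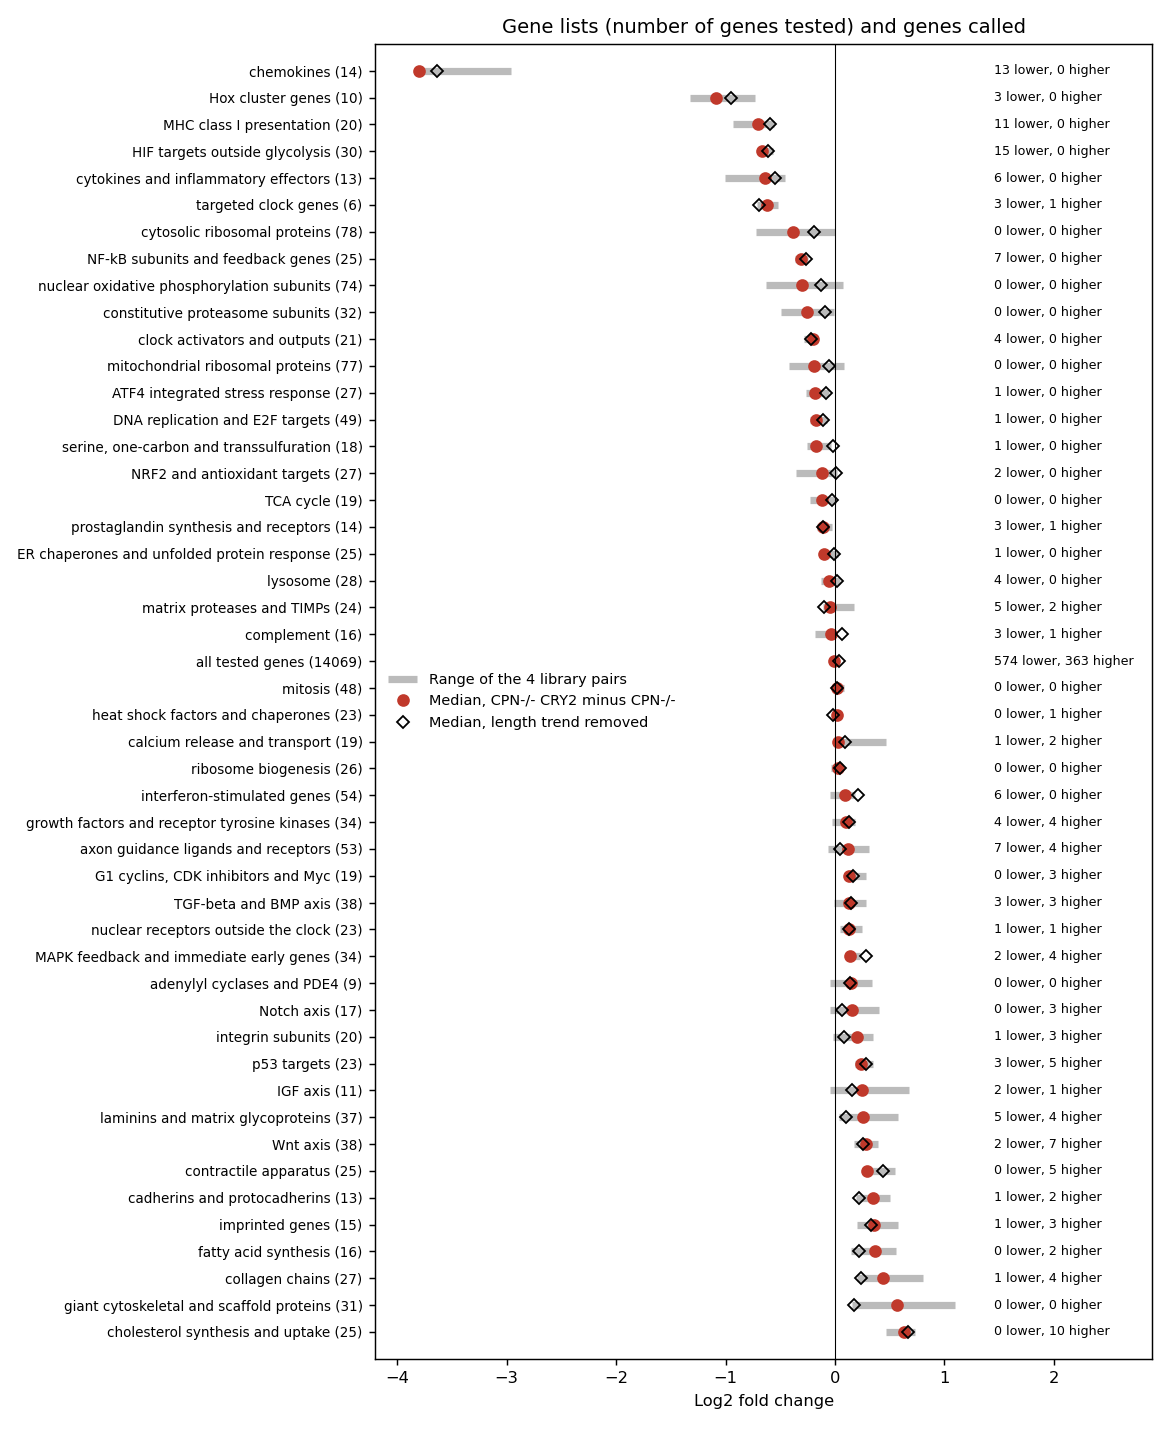
Median log2 fold change of CPN-/- CRY2 against CPN-/- (horizontal axis) for 47 gene lists and for all tested genes (vertical axis, number of genes tested in parentheses). Filled points are medians as fitted, open diamonds medians with the length trend removed, and grey bars the range of the medians of the 4 pairs of single libraries; the numbers of genes called lower and higher are printed on the right. Chemokines lay lowest at −3.80 and cholesterol synthesis genes highest at 0.63, while ribosomal and giant scaffold genes had wide bars.

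Where a list below held 0 genes in a direction by edgeR, the same was checked at an unadjusted p under 0.05 and by DESeq2. It was 0 by both for higher chemokines, effectors, MHC class I genes and HIF targets and for lower cholesterol and contractile genes. It was 1 and 0 for higher NF-kB genes, 4 and 1 for higher clock activators and outputs, and 13 and 1 for higher interferon-stimulated genes. Genes with at most 3 counts in each CPN-/- CRY2 library passed the filter on low counts through other lines, where they were higher. Counts for lists that hold such genes describe the tested genes and no more.

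Of the 6 targeted clock genes 4 were called, and their transcripts were present in all libraries, so that counts per gene do not show the knockout. Cry2 rose from 136 and 129 CPM to 349 and 351 CPM, a log2 fold change of 1.40 (SE 0.09, adjusted p = 5.8e-04), and endogenous and viral transcripts are not separated in this value. Per1 fell from 65.4 and 63.1 CPM to 26.6 and 27.3 CPM and Per2 from 90.4 and 79.4 CPM to 38.8 and 41.3 CPM, with log2 fold changes of −1.25 (SE 0.10, adjusted p = 0.0011) and −1.09 (SE 0.12, adjusted p = 0.0041). Cry1 fell from 125 and 115 CPM to 51.00 and 48.3 CPM, by a log2 fold change of −1.27 (SE 0.11, adjusted p = 0.0015). Nr1d1 and Nr1d2 did not pass, at 0.07 (SE 0.10, adjusted p = 0.67) and −0.15 (SE 0.11, adjusted p = 0.39). Of 21 tested activators and outputs of the clock, 4 were lower and 0 higher, beside 4.08% and 2.58% of all genes. The lower count was 1 and 1 without CPN-/- CRY2 replicate 1 and replicate 2, and 9 and 10 without CPN-/- replicate 1 and replicate 2, with 5 and 4 higher. Ciart, a repressor in the clock loop, fell from 34.6 and 39.3 CPM to 13.5 and 14.1 CPM, a log2 fold change of −1.42 (SE 0.12, adjusted p = 0.0011). The transcription factor genes Dbp and Hlf fell by log2 fold changes of −1.21 (SE 0.16, adjusted p = 0.0065) and −2.01 (SE 0.25, adjusted p = 0.0056), and Bhlhe40 by a log2 fold change of −1.15 (SE 0.13, adjusted p = 0.0039). The median of these 21 genes was −0.20 and was −0.22 after length removal, when 6 were lower and 4 higher.

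Chemokines had the lowest median of all lists. Chemokines are secreted proteins that attract leukocytes, and in fibroblasts many of them are induced by NF-kB. Of the 35 chemokine genes counted, 14 were tested and the others had at most 8 counts in any library, and 13 of the 14 fell and 0 rose, beside 4.08% lower over all genes. Several of these, such as Cxcl5 and Ccl20, passed the filter on low counts through the line in which they were high, so the count describes the tested genes and no more. Of the 13, 6 lie on chromosome 5 and 4 on chromosome 11, where these genes form clusters.

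Cxcl1, a neutrophil attractant, fell from 65.5 and 69.9 CPM to 0.698 and 0.630 CPM, a log2 fold change of −6.66 (SE 0.22, adjusted p = 1.1e-04). Its neighbour Cxcl5 was at 11.3 and 11.6 CPM in CPN-/- and had 0 counts in both CPN-/- CRY2 libraries, which is at least 103-fold lower against a floor of 3 counts per library. Ccl20 and Cxcl2 also had 0 counts in CPN-/- CRY2, from 1.76 and 2.42 CPM and 0.566 and 0.844 CPM in CPN-/-, and were at least 18.9-fold lower and at least 6.37-fold lower against the same floor. The monocyte attractants were more abundant and did not vanish. Ccl2 fell from 194 and 273 CPM to 22.6 and 27.6 CPM, a log2 fold change of −3.22 (SE 0.19, adjusted p = 4.5e-04), and Ccl7 fell from 88.4 and 126 CPM to 13.6 and 15.9 CPM, by a log2 fold change of −2.86 (SE 0.19, adjusted p = 7.0e-04). Cxcl10, a T cell attractant that interferon induces, went from 19.9 and 23.2 CPM to 0.625 and 1.78 CPM, the 2 CPN-/- CRY2 libraries differing by more than those of the other abundant members. Cxcl12, which retains stem cells and leukocytes in tissues and was the most abundant member, fell from 436 and 380.0 CPM to 136 and 137 CPM, by a log2 fold change of −1.58 (SE 0.11, adjusted p = 7.0e-04). Cx3cl1 (fractalkine) fell from 53.7 and 44.5 CPM to 18.9 and 16.8 CPM, by a log2 fold change of −1.46 (SE 0.14, adjusted p = 0.0021).

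The remaining called chemokines were low. Ppbp fell from 3.93 and 4.03 CPM to 0.257 and 0.111 CPM and Ccl9 from 3.27 and 2.65 CPM to 0.772 and 1.30 CPM, by log2 fold changes of −4.40 (SE 0.31, adjusted p = 7.0e-04) and −1.52 (SE 0.32, adjusted p = 0.038). Ccl5 and Cxcl15 had 0 to 2 counts in each CPN-/- CRY2 library, and their CPN-/- level was higher by 16.2 times (95% counting interval 5.26 to 81.3) and 14.1 times (95% counting interval 3.56 to 121), where the interval covers counting error only. Ccl25 was the one tested chemokine that did not pass, at −0.09 (SE 0.13, adjusted p = 0.67). In 13 of the 14 genes both CPN-/- CRY2 libraries lay below both CPN-/- libraries, as they did in 27.2% of all tested genes. The median log2 fold change of the 14 was −3.80, or −3.44 with the 3 genes at 0 set to their bound, and −3.63 with the length trend removed. The shift that the length curve alone gave these genes was −0.17, which is small beside the list's own median. Leaving out single libraries gave 9 to 13 lower and 0 higher genes.

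The promoters of 2 chemokines and of the NF-kB inhibitor gene Nfkbia are shown because these genes fell together and their windows hold the kappa-B core GGGANTTTC, the element that NF-kB binds. The windows run from 250 bases before to 50 bases after the start of the gene, from RefSeq on GRCm38.p6, with the motif in capitals: chr5:90890995-90891294 (+ strand) for Cxcl1, chr5:90903649-90903948 (+ strand) for Cxcl2 and chr12:55492598-55492897 (- strand) for Nfkbia.
Cxcl1: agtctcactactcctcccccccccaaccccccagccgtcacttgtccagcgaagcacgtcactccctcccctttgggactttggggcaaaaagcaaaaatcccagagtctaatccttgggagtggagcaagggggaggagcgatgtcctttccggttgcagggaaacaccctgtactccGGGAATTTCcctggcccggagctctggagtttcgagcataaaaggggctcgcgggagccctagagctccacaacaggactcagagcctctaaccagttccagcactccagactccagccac
Cxcl2: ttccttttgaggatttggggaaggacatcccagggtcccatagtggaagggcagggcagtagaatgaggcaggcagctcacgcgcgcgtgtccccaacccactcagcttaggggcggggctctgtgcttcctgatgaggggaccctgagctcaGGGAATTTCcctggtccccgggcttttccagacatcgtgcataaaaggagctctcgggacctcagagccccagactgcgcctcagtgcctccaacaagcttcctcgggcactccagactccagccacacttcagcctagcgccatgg
Nfkbia: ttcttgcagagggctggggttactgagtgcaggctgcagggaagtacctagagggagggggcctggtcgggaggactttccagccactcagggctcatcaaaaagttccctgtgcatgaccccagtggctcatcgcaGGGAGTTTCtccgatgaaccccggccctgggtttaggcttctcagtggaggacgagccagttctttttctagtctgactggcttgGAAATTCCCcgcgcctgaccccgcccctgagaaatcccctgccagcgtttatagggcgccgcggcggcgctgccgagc
The core, searched on both strands, was in 0.929% of 13241 promoters of tested genes, in 1.80% of 555 promoters of genes called lower and in 0.608% of 329 promoters of genes called higher. It was in the promoters of 2 of the 9 called chemokines with a sequence. A match is a description of the letters and not a site. The E-box CACGTG was in 9.75% of all promoters, in 8.29% of those of lower and 7.90% of those of higher genes. It was in 2 of the 3 promoter sequences of Per1 and Cry1, and in 1 of the 3 called clock outputs with a sequence. That gene is Ciart, whose window holds 3 copies and is given on chr3:95882179-95882478 (- strand) with the copies in capitals.
Ciart: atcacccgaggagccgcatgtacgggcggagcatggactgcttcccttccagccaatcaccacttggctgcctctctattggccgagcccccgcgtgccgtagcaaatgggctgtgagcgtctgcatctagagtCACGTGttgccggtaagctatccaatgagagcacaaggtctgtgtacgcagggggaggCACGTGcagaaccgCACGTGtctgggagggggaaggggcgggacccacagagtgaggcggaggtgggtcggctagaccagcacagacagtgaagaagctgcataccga

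Other inflammatory effectors fell with the chemokines. Of 13 tested cytokines and effectors 6 were lower and 0 higher, beside 4.08% and 2.58% of all genes. Their median was −0.64 before and −0.55 after length removal, which gave 6 lower and 1 higher. Nos2, the inducible nitric oxide synthase, went from 17.7 and 12.9 CPM to 3 counts in each CPN-/- CRY2 library, and was 140.3 times (95% counting interval 64.2 to 383) higher in CPN-/-. Lcn2, the iron-binding lipocalin, fell from 6.005 and 7.14 CPM to 0.0735 and 0.0371 CPM, a ratio of 118 times (95% counting interval 39.97 to 573). The acute phase gene Saa3 was at 4.90 and 9.06 CPM in CPN-/- and at 0 counts in CPN-/- CRY2, at least 63.1-fold lower against the floor. Nos2, Lcn2 and Saa3 passed the filter on low counts through a line in which they were high. The list's count of lower genes therefore describes the tested genes and no more. Ptx3, a soluble pattern receptor, stayed abundant and fell less, from 309.8 and 365 CPM to 212 and 220.4 CPM, a log2 fold change of −0.64 (SE 0.11, adjusted p = 0.018). Lif fell from 8.96 and 10.6 CPM to 4.04 and 3.82 CPM, by a log2 fold change of −1.31 (SE 0.15, adjusted p = 0.0038). Il6 was low in both lines, 0.912 and 0.806 CPM against 0.110 and 0.259 CPM, and was called at −2.20 (SE 0.44, adjusted p = 0.032). Csf1, Il33 and Il34 did not pass, at −0.21 (SE 0.13, adjusted p = 0.35), 0.47 (SE 0.40, adjusted p = 0.48) and 0.27 (SE 0.13, adjusted p = 0.25).

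Complement genes were called in both directions. C3, the central component, fell from 69.4 and 44.1 CPM to 0.0735 and 0.259 CPM, a log2 fold change of −8.38 (SE 0.48, adjusted p = 3.8e-04), and C4b fell from 2.39 and 1.88 CPM to 0.331 and 0.371 CPM, by a log2 fold change of −2.60 (SE 0.41, adjusted p = 0.013). Clu, the inhibitor clusterin, fell by a log2 fold change of −1.15 (SE 0.12, adjusted p = 0.0028). Over the 16 tested genes 3 were lower and 1 higher (18.8% and 6.25%, beside 4.08% and 2.58% of all genes). The median was −0.03, turning to 0.06 after length removal. Of 14 prostaglandin genes, 3 fell and 1 rose (21.4% and 7.14%, beside 4.08% and 2.58% of all genes). Their median was −0.11 before and −0.11 after length removal. Ptges, a prostaglandin E synthase, had 1 and 3 counts in CPN-/- CRY2 and was 21.5 times (95% counting interval 8.13 to 80.7) higher in CPN-/-, Ptgfr and Ptgr2 fell by log2 fold changes of −2.34 (SE 0.46, adjusted p = 0.03) and −0.43 (SE 0.09, adjusted p = 0.044), and the receptor gene Ptger1 rose from 29.2 and 23.99 CPM to 45.8 and 54.8 CPM, by a log2 fold change of 0.92 (SE 0.14, adjusted p = 0.012).

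Genes of the NF-kB pathway itself fell on the side of its feedback. NF-kB induces its own inhibitors. Of 25 tested subunits and feedback genes 7 were lower and 0 higher, beside 4.08% and 2.58% of all genes. Nfkbia, which encodes the inhibitor IkB-alpha, fell from 83.7 and 91.95 CPM to 33.8 and 35.1 CPM, a log2 fold change of −1.35 (SE 0.10, adjusted p = 8.6e-04). Nfkbie fell from 25.5 and 26.9 CPM to 8.60 and 9.34 CPM, by a log2 fold change of −1.54 (SE 0.12, adjusted p = 9.0e-04), and Nfkbiz, a nuclear co-factor, from 46.6 and 41.5 CPM to 13.1 and 15.3 CPM, by a log2 fold change of −1.64 (SE 0.16, adjusted p = 0.0025). Bcl3, another nuclear member of this family, fell most, from 9.27 and 9.44 CPM to 0.808 and 0.556 CPM, by a log2 fold change of −3.77 (SE 0.25, adjusted p = 6.4e-04). Tnfaip3, the deubiquitinase A20, and its partner Tnip1 fell by log2 fold changes of −1.33 (SE 0.14, adjusted p = 0.0032) and −0.80 (SE 0.10, adjusted p = 0.0047). Relb, a subunit gene that is itself induced, fell from 24.7 and 26.7 CPM to 13.8 and 14.01 CPM, by a log2 fold change of −0.88 (SE 0.11, adjusted p = 0.0047). The subunit genes Rela and Nfkb1 and the kinase genes Chuk and Ikbkb did not pass, at −0.25 (SE 0.09, adjusted p = 0.15), 0.02 (SE 0.11, adjusted p = 0.93), −0.04 (SE 0.09, adjusted p = 0.78) and −0.01 (SE 0.10, adjusted p = 0.97). The median of the 25 genes was −0.31 before and −0.26 after length removal, which gave 11 lower and 0 higher genes. The lower count was 4 or 5 without one of the CPN-/- CRY2 libraries and 15 or 14 without CPN-/- replicate 1 or replicate 2, the former with 5 higher.

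**Figure D3:**
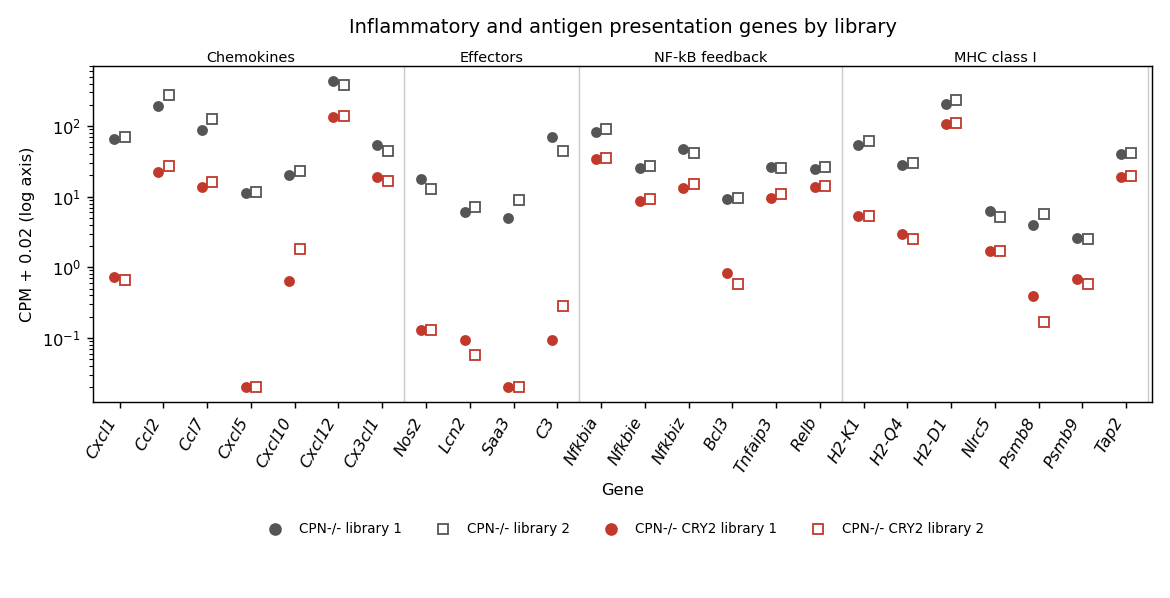
CPM plus 0.02 on a log axis (vertical) for called inflammatory and antigen presentation genes (horizontal) in each of the 4 libraries, grey for CPN-/- and red for CPN-/- CRY2, with circles for library 1 and squares for library 2. In every gene plotted both red points lie below both grey points, and for Cxcl5 and Saa3 the red points are at 0 counts.

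Of the genes for antigen presentation on MHC class I, 11 of 20 were called lower, beside 4.08% of all genes. Among them were heavy chain, peptide supply and regulator genes. MHC class I molecules show peptides of the cell's own proteins to T cells, the peptides being cut by the immunoproteasome and carried into the endoplasmic reticulum by the TAP transporter. None of the 20 was called higher (0 genes), and 10 of the 11 lie on chromosome 17, where the MHC is. The heavy chain gene H2-K1 fell from 53.1 and 61.1 CPM to 5.29 and 5.30 CPM, a log2 fold change of −3.43 (SE 0.15, adjusted p = 1.9e-04). H2-D1 fell from 202 and 231 CPM to 107 and 109 CPM (adjusted p = 0.0032), and H2-Q4 from 27.98 and 29.6 CPM to 2.98 and 2.52 CPM, by a log2 fold change of −3.39 (SE 0.17, adjusted p = 3.0e-04). H2-Q7 had 1 count in each CPN-/- CRY2 library and was 119.9 times (95% counting interval 32.9 to 995) higher in CPN-/-. It passed the filter on low counts through a line in which it was high, so the list's count describes the tested genes. H2-M3 and H2-T23 fell by log2 fold changes of −1.51 (SE 0.19, adjusted p = 0.0054) and −0.92 (SE 0.20, adjusted p = 0.047). These heavy chain genes resemble each other in sequence, and how reads with several matches were counted is not given in the sources used here, so that the split between them is uncertain.

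Genes that supply and load the peptides were among the 11. The immunoproteasome subunit genes Psmb8 and Psmb9 fell from 3.99 and 5.64 CPM to 0.367 and 0.148 CPM and from 2.58 and 2.49 CPM to 0.661 and 0.556 CPM, by log2 fold changes of −4.19 (SE 0.39, adjusted p = 0.0019) and −2.05 (SE 0.26, adjusted p = 0.0056). Tap2 fell from 39.8 and 41.5 CPM to 18.8 and 19.7 CPM, by a log2 fold change of −1.08 (SE 0.10, adjusted p = 0.0021), and Tapbp, the tapasin gene, by a log2 fold change of −0.49 (SE 0.10, adjusted p = 0.04). Nlrc5, the transactivator of MHC class I genes, fell from 6.26 and 5.18 CPM to 1.65 and 1.70 CPM, by a log2 fold change of −1.77 (SE 0.16, adjusted p = 0.0018). B2m, the light chain, and Tap1 did not pass, at −0.38 (SE 0.11, adjusted p = 0.1) and −0.41 (SE 0.13, adjusted p = 0.13). The median of the 20 genes was −0.70 and after length removal −0.60, with 13 lower and 0 higher. Leaving out either CPN-/- CRY2 library left 6 lower genes, and leaving out CPN-/- replicate 1 gave 17 lower and 1 higher. Over all 674 tested genes of chromosome 17 the median was −0.13, with 43 lower and 7 higher.

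Interferon-stimulated genes, some of which share regulators with the MHC genes, did not move as one. Of 54 tested, 6 were lower and 0 higher (11.1% lower, beside 4.08% of all genes). Sp100, Gbp6 and Isg20 fell by log2 fold changes of −2.58 (SE 0.29, adjusted p = 0.0036), −2.95 (SE 0.34, adjusted p = 0.0041) and −1.47 (SE 0.22, adjusted p = 0.011), and Irf1, a transcription factor gene that NF-kB induces, fell from 58.3 and 61.7 CPM to 35.3 and 35.4 CPM, by a log2 fold change of −0.76 (SE 0.14, adjusted p = 0.022). Zbp1 and Gbp2 fell by log2 fold changes of −2.12 (SE 0.46, adjusted p = 0.041) and −0.64 (SE 0.14, adjusted p = 0.045). The median of the list was nevertheless above 0, at 0.09, and at 0.21 after length removal, when 9 genes were lower and 13 higher. In that fit 6.87% of all genes were lower and 10.7% higher. The 13 included Ifit2, Mx1, Mx2, Oas1a, Oas1b, Stat2, Irgm2, Parp12, Trim25, Trim30a, Cmpk2 and Samhd1, named after their values were seen. At an unadjusted p under 0.05 without removal, 11 genes of the list were lower and 13 higher. With CPN-/- CRY2 replicate 1 and replicate 2 left out, 2 and 1 were lower and 0 and 0 higher, and with CPN-/- replicate 1 and replicate 2 left out, 13 and 10 were lower and 15 and 10 higher.

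Targets of the hypoxia factor HIF outside glycolysis were the largest called group by number. HIF is active when oxygen is short and raises genes for glucose use, for oxygen sensing, for removal of mitochondria and for collagen modification. Of 30 tested genes 15 fell and 0 rose, beside 4.08% lower and 2.58% higher over all genes. Bnip3, a receptor for the removal of mitochondria, fell from 163 and 179 CPM to 50.2 and 49.8 CPM, a log2 fold change of −1.77 (SE 0.10, adjusted p = 3.1e-04). The oxygen-sensing prolyl hydroxylase genes Egln3 and Egln1 fell from 31.2 and 29.97 CPM to 10.5 and 9.41 CPM and from 144 and 149 CPM to 103 and 98.8 CPM, by log2 fold changes of −1.62 (SE 0.11, adjusted p = 7.0e-04) and −0.53 (SE 0.09, adjusted p = 0.016). Collagen is hydroxylated by enzymes whose genes P4ha1, P4ha2 and Plod2 fell by log2 fold changes of −0.80 (SE 0.10, adjusted p = 0.0063), −1.07 (SE 0.09, adjusted p = 0.0012) and −0.99 (SE 0.12, adjusted p = 0.0049). P4ha1 was the most abundant of them, from 669 and 602 CPM to 379 and 353 CPM.

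The mitochondrial members Fam162a and Higd1a fell from 218 and 321 CPM to 75.1 and 80.8 CPM and from 112 and 160.1 CPM to 54.7 and 58.00 CPM, and Ak4, a mitochondrial adenylate kinase, from 71.9 and 73.5 CPM to 30.8 and 28.9 CPM. Their log2 fold changes were −1.79 (SE 0.18, adjusted p = 0.0026), −1.27 (SE 0.17, adjusted p = 0.0074) and −1.28 (SE 0.09, adjusted p = 8.6e-04). Fam162a and Higd1a were higher in CPN-/- library 2 than in library 1, and with the length trend removed their changes were −1.59 and −1.10. Ero1a, an oxidase of the endoplasmic reticulum, fell by a log2 fold change of −0.85 (SE 0.12, adjusted p = 0.0093). Mxi1, Ndrg1 and Ankrd37 fell by log2 fold changes of −0.69 (SE 0.09, adjusted p = 0.0065), −0.64 (SE 0.10, adjusted p = 0.012) and −0.90 (SE 0.18, adjusted p = 0.032). Car12 had 0 counts in CPN-/- CRY2 and 0.409 and 0.345 CPM in CPN-/-, at least 3.41-fold lower against the floor. It passed the filter on low counts through a line in which it was higher, so the list's count describes the tested genes. Vegfa, the angiogenic factor, and Adm did not pass, at −0.32 (SE 0.09, adjusted p = 0.09) and −0.22 (SE 0.11, adjusted p = 0.27), and Car9 lay at 0.06 (SE 0.16, adjusted p = 0.83).

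The median of the 30 genes was −0.67 before and −0.61 after length removal, and the medians of the 4 single library pairs lay between −0.67 and −0.57. The CPN-/- libraries differed by a median of −0.04 for these genes. With the trend removed 19 of the 30 were lower and 0 higher. Without either CPN-/- CRY2 library 5 were lower, and without CPN-/- replicate 2 there were 24.

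**Figure D4:**
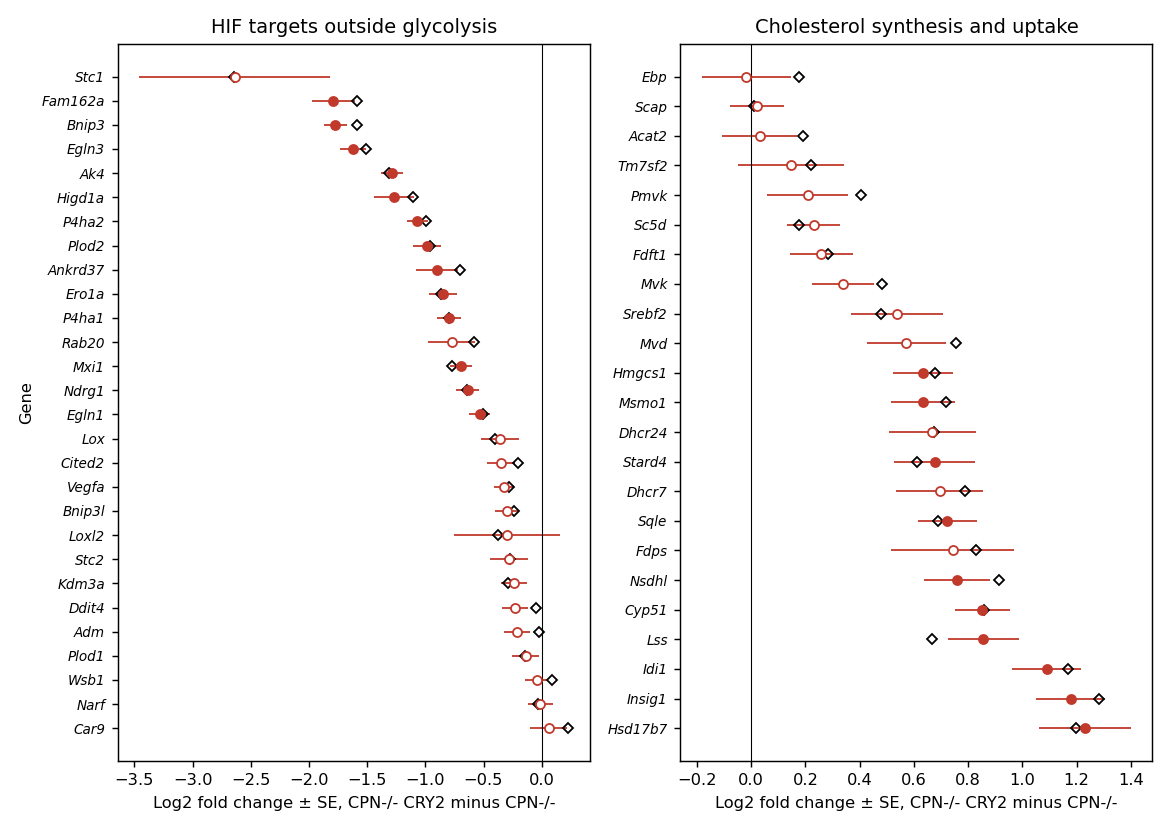
Log2 fold change of CPN-/- CRY2 against CPN-/- with its SE (horizontal axis) for tested genes (vertical axis) of 2 lists; filled circles passed the test, open circles did not, and open diamonds are the values with the length trend removed. Car12, with 0 counts in CPN-/- CRY2, is left out. The called HIF targets lie between −1.79 and −0.53, and the called cholesterol genes between 0.63 and 1.23.

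In the other direction, genes of cholesterol synthesis and uptake rose. These genes are raised together by the factor SREBP2 when sterols in the endoplasmic reticulum are low. Of 25 tested genes 10 rose and 0 fell, beside 2.58% higher over all genes. Insig1, which holds SREBP back and is itself one of its targets, rose from 28.1 and 23.8 CPM to 61.1 and 56.6 CPM, a log2 fold change of 1.18 (SE 0.13, adjusted p = 0.0034). At the start of the pathway Hmgcs1 rose from 56.5 and 50.8 CPM to 84.3 and 82.2 CPM, by a log2 fold change of 0.63 (SE 0.11, adjusted p = 0.019), and Idi1 from 5.09 and 5.45 CPM to 11.8 and 10.7 CPM, by a log2 fold change of 1.09 (SE 0.13, adjusted p = 0.0041). Sqle, the squalene epoxidase, and Lss, the enzyme that forms lanosterol from its product, rose from 103 and 100.47 CPM to 177 and 158 CPM and from 45.4 and 38.6 CPM to 76.7 and 75.3 CPM, by log2 fold changes of 0.72 (SE 0.11, adjusted p = 0.011) and 0.86 (SE 0.13, adjusted p = 0.012). Of the later enzymes, Cyp51, Msmo1, Nsdhl and Hsd17b7 rose by log2 fold changes of 0.85 (SE 0.10, adjusted p = 0.0047), 0.64 (SE 0.12, adjusted p = 0.025), 0.76 (SE 0.12, adjusted p = 0.014) and 1.23 (SE 0.17, adjusted p = 0.0083). Stard4, a sterol carrier, rose by a log2 fold change of 0.68 (SE 0.15, adjusted p = 0.045).

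Srebf2, which encodes SREBP2, did not pass, at 0.54 (SE 0.17, adjusted p = 0.12). The median of the 25 genes was 0.63, and 0.67 after length removal, when 19 rose and 0 fell. The medians of the 4 library pairs lay between 0.47 and 0.73, and in 20 of the 25 genes both CPN-/- CRY2 libraries lay above both CPN-/- libraries, as they did in 28% of all tested genes. The count depended on the libraries: 1 and 2 genes were higher without CPN-/- CRY2 replicate 1 and replicate 2, and 19 and 21 without CPN-/- replicate 1 and replicate 2. Of 16 genes for fatty acid synthesis, 2 rose, the desaturase genes Fads1 and Fads2, from 108 and 98.9 CPM to 153 and 157 CPM and from 72.8 and 57.99 CPM to 116 and 119 CPM, by log2 fold changes of 0.58 (SE 0.10, adjusted p = 0.017) and 0.84 (SE 0.13, adjusted p = 0.011). Fasn and Scd1 had 0.62 (SE 0.22, adjusted p = 0.16) and 0.58 (SE 0.14, adjusted p = 0.06). The called Fads1 and Fads2 were 12.5% of the list, beside 2.58% higher over all genes. The median of this list was 0.37 and was 0.22 after removal, although the length curve alone gave these genes a median shift of 0.01. After removal 7 genes were higher and 2 lower, with Fads1 and Fads2 at 0.63 and 0.91. Without either CPN-/- CRY2 library 0 genes of the list were called, and without CPN-/- replicate 1 and replicate 2 10 and 7 were higher.

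A further 5 lists held 0 called genes by edgeR's test, and their medians lay away from 0 in the direction of the length trend. At an unadjusted p under 0.05, 22 cytosolic ribosomal, 14 oxidative phosphorylation, 9 mitochondrial ribosomal and 6 proteasome genes were lower and 11 giant scaffold genes higher, and DESeq2 called 7, 2, 1, 0 and 7 genes in these directions. The 78 tested genes for cytosolic ribosomal proteins, with a median transcript of 1076 bases, had a median log2 fold change of −0.38. The CPN-/- libraries differed by 0.58 for the same genes, the medians of the 4 library pairs lay between −0.72 and 0.00, and the median after length removal was −0.19. The 74 nuclear genes for oxidative phosphorylation subunits had −0.30, with 0.54 between the CPN-/- libraries and −0.13 after removal. For the 77 mitochondrial ribosomal proteins the median moved from −0.19 to −0.06, and for the 32 constitutive proteasome subunits from −0.26 to −0.09. These 4 lists are of short genes and all shifted down.

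The list of giant cytoskeletal and scaffold proteins, chosen for its long genes (a median transcript of 13757 bases over 31 tested genes), shifted up. Its median was 0.57, against −0.95 between the CPN-/- libraries. It was 0.17 after removal, with 2 genes lower and 8 higher, beside 6.87% and 10.7% of all genes in that fit. What was called here depended on the CPN-/- library used. Without CPN-/- replicate 1, 73 of the 78 cytosolic ribosomal, 69 of the 74 oxidative phosphorylation, 65 of the 77 mitochondrial ribosomal and 30 of the 32 proteasome genes were called lower and 31 of the 31 giant scaffold genes higher. Without CPN-/- replicate 2 the numbers were 9, 4, 3, 1 and 14. No level of these lists can therefore be read from the comparison of the lines, and after length removal 4 or fewer genes of each short-gene list were called lower. The tricarboxylic acid cycle, 19 genes, had 0 called genes in edgeR before and after removal, 0 by DESeq2 and 0 at an unadjusted p under 0.05, with a median of −0.12 and −0.03.

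Few proliferation genes were called, and in the DNA replication list 2.04% were lower, beside 4.08% of all genes. Of 49 DNA replication and E2F target genes 1 was called lower and 0 higher, Rrm2, a subunit of ribonucleotide reductase, from 109.6 and 117 CPM to 80.4 and 76.2 CPM, by a log2 fold change of −0.53 (SE 0.11, adjusted p = 0.033). At an unadjusted p under 0.05, 11 of them were lower and 1 higher, and DESeq2 called 3 lower and 0 higher. The values of 44 of the 49 lay below 0, and of 38 after length removal, with medians of −0.18 and −0.11. Without CPN-/- replicate 1 and replicate 2, 29 and 8 were lower, and without any one of the other 4 libraries 0 were. The 48 mitosis genes and the 26 ribosome biogenesis genes held 0 called genes by edgeR, with medians of 0.01 and 0.03. After length removal these medians were 0.02 and 0.04. At the same unadjusted threshold 1 mitosis gene was lower and 8 higher, and 1 and 2 of the ribosome biogenesis genes, and DESeq2 called 1 gene lower in the first and 2 higher in the second list. Among 19 cyclin, inhibitor and Myc genes 3 rose (15.8%, beside 2.58% of all genes). Their median was 0.12 before and 0.16 after length removal. Ccnd1, cyclin D1, rose from 315 and 264 CPM to 463 and 440.4 CPM, a log2 fold change of 0.64 (SE 0.12, adjusted p = 0.022), Cdkn1a, the inhibitor p21, from 58.2 and 58.7 CPM to 85.6 and 87.1 CPM, by a log2 fold change of 0.56 (SE 0.09, adjusted p = 0.013), and Cdkn1c, the imprinted inhibitor p57, by a log2 fold change of 1.22 (SE 0.27, adjusted p = 0.045). Of 23 p53 targets 5 rose and 3 fell. Besides Cdkn1a, Aen, Trp53inp1, Zmat3 and Ccng1 rose by log2 fold changes of 0.57 (SE 0.10, adjusted p = 0.023), 0.98 (SE 0.18, adjusted p = 0.026), 0.54 (SE 0.11, adjusted p = 0.039) and 0.50 (SE 0.11, adjusted p = 0.04). The death receptor gene Fas fell from 20.1 and 25.9 CPM to 5.33 and 5.30 CPM, by a log2 fold change of −2.11 (SE 0.16, adjusted p = 9.0e-04), and Gadd45a and Pmaip1 by log2 fold changes of −0.77 (SE 0.16, adjusted p = 0.035) and −2.41 (SE 0.55, adjusted p = 0.050). Fas is also induced by NF-kB, and whether this bears on its fall was not tested. The p53 calls depended on single libraries. Without any one of the 4 CRY line libraries 1 gene was lower and 0 were higher, and without CPN-/- replicate 1 and replicate 2 6 and 3 were lower and 12 and 9 higher.

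Feedback genes of MAPK signalling rose in part. Dusp6, Spry1 and Spry4, inhibitors that ERK induces, rose by log2 fold changes of 0.92 (SE 0.12, adjusted p = 0.0077), 0.99 (SE 0.14, adjusted p = 0.0088) and 1.31 (SE 0.26, adjusted p = 0.033), with Dusp6 going from 17.9 and 20.4 CPM to 34.5 and 37.9 CPM. The ETS factor gene Etv1 rose by a log2 fold change of 1.06 (SE 0.23, adjusted p = 0.043). Dusp9 and Junb fell from 20.4 and 20.1 CPM to 9.59 and 9.67 CPM and from 93.6 and 119.8 CPM to 39.4 and 52.1 CPM, by log2 fold changes of −1.07 (SE 0.10, adjusted p = 0.0021) and −1.22 (SE 0.19, adjusted p = 0.012). This gave 4 higher and 2 lower of 34 tested (11.8% and 5.88%, beside 2.58% higher and 4.08% lower over all genes). The list median was 0.14 before and 0.28 after length removal, when 11 were higher and 4 lower. In that fit 10.7% of all genes were higher and 6.87% lower.

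Ligands and receptors of growth factor signalling changed in both directions, 4 lower and 4 higher of 34. Each count was 11.8% of the list, beside 4.08% lower and 2.58% higher over all genes. The list median was 0.10 before and 0.12 after length removal. Pdgfb, the B chain of platelet-derived growth factor, fell from 8.52 and 10.7 CPM to 1.87 and 1.89 CPM, a log2 fold change of −2.35 (SE 0.19, adjusted p = 0.0011). Egfr, the receptor of epidermal growth factor, fell from 2.64 and 1.38 CPM to 0.147 and 0.0371 CPM, by a log2 fold change of −4.41 (SE 0.60, adjusted p = 0.0081). The neurotrophic factor gene Gdnf fell by a log2 fold change of −0.80 (SE 0.12, adjusted p = 0.0097) and Btc, a ligand of EGFR, by a log2 fold change of −0.85 (SE 0.19, adjusted p = 0.047). Gas6, the ligand of the TAM receptors, rose from 7.70 and 7.41 CPM to 19.3 and 22.1 CPM, by a log2 fold change of 1.45 (SE 0.13, adjusted p = 0.0014). Fgf10 and its receptor gene Fgfr2 rose from 22.2 and 16.7 CPM to 46.4 and 43.8 CPM and from 21.9 and 16.7 CPM to 34.8 and 33.7 CPM, by log2 fold changes of 1.21 (SE 0.15, adjusted p = 0.0056) and 0.83 (SE 0.14, adjusted p = 0.02). Fgf2 rose by a log2 fold change of 1.96 (SE 0.44, adjusted p = 0.048) from 0.220 and 0.230 CPM. The IGF list held 11 tested genes, 2 lower and 1 higher (18.2% and 9.09%, beside 4.08% and 2.58% of all genes). Its median was 0.24 before and 0.15 after length removal, beside −0.50 between the CPN-/- libraries. In the IGF axis, Igfbp7 fell from 166 and 196 CPM to 68.6 and 70.3 CPM, by a log2 fold change of −1.38 (SE 0.11, adjusted p = 0.0011), Igfbp2 had 1 and 3 counts in CPN-/- CRY2 and was 47.5 times (95% counting interval 18.3 to 176) higher in CPN-/-, and the docking protein gene Irs1 rose by a log2 fold change of 0.94 (SE 0.16, adjusted p = 0.02).

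In the TGF-beta and BMP axis, 3 of 38 fell and 3 rose (7.89% each, beside 4.08% lower and 2.58% higher over all genes). The list median was 0.13 before and 0.15 after length removal. Tgfb1 fell from 12.04 and 12.4 CPM to 3.64 and 4.37 CPM, a log2 fold change of −1.61 (SE 0.14, adjusted p = 0.0014). Bmpr1b, a BMP receptor, had 0 and 1 counts in CPN-/- CRY2 and was 42.1 times (95% counting interval 7.19 to 1701) higher in CPN-/-. Inhbb, the activin B subunit, and Bambi, a decoy receptor, rose from 58.2 and 50.9 CPM to 113 and 109 CPM and from 8.43 and 10.6 CPM to 20.2 and 20.3 CPM, by log2 fold changes of 1.03 (SE 0.10, adjusted p = 0.0024) and 1.10 (SE 0.14, adjusted p = 0.0054), and Id2, a BMP target, by a log2 fold change of 0.71 (SE 0.15, adjusted p = 0.045).

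The Wnt axis leaned upward, with 7 higher and 2 lower of 38 (18.4% and 5.26%, beside 2.58% higher and 4.08% lower over all genes). Wnt ligands bind Frizzled receptors, and R-spondins with Lgr receptors keep Frizzled at the membrane. Wnt5a, the most abundant ligand of these, rose from 120.0 and 87.9 CPM to 280.5 and 276 CPM, a log2 fold change of 1.42 (SE 0.16, adjusted p = 0.0035), and Wnt10b and Wnt9a rose by log2 fold changes of 0.62 (SE 0.09, adjusted p = 0.011) and 0.58 (SE 0.12, adjusted p = 0.037). Rspo2 and Lgr4 rose from 11.2 and 9.98 CPM to 30.8 and 27.8 CPM and from 24.3 and 19.2 CPM to 40.3 and 42.2 CPM, by log2 fold changes of 1.47 (SE 0.12, adjusted p = 0.0012) and 0.92 (SE 0.13, adjusted p = 0.0091). The receptors diverged. Fzd5 rose from 22.5 and 17.8 CPM to 55.3 and 50.4 CPM, by a log2 fold change of 1.39 (SE 0.13, adjusted p = 0.0022), while Fzd6 fell from 4.43 and 3.42 CPM to 0.184 and 0.259 CPM, by a log2 fold change of −4.13 (SE 0.29, adjusted p = 7.2e-04). Tcf7l2, a nuclear effector, rose by a log2 fold change of 0.49 (SE 0.10, adjusted p = 0.03), and Wnt11 fell by a log2 fold change of −1.42 (SE 0.31, adjusted p = 0.043) at 0.294 and 0.334 CPM in CPN-/- CRY2. The median of the list was 0.28 before and 0.25 after length removal, when 14 were higher and 4 lower. In that fit 10.7% of all genes were higher and 6.87% lower. With either CPN-/- CRY2 library left out 3 were higher, and with CPN-/- replicate 1 left out 19. In the Notch axis 3 of 17 tested genes rose (17.6%, beside 2.58% of all genes), the ligand Jag1, the receptor Notch1 and the target Hey2. Their log2 fold changes were 1.24 (SE 0.15, adjusted p = 0.0053), 1.07 (SE 0.20, adjusted p = 0.028) and 1.10 (SE 0.20, adjusted p = 0.023). The list median was 0.15 before and 0.07 after length removal, beside −0.39 between the CPN-/- libraries.

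Axon guidance genes, which also steer fibroblast migration, fell in 7 and rose in 4 of 53 tested. These were 13.2% and 7.55%, beside 4.08% lower and 2.58% higher over all genes. The list median was 0.12 before and 0.05 after length removal, beside −0.33 between the CPN-/- libraries. Ntn1, netrin, fell from 12.3 and 10.1 CPM to 0.514 and 0.445 CPM, a log2 fold change of −4.53 (SE 0.21, adjusted p = 2.5e-04), while Unc5c, one of its receptors, rose from 12.2 and 8.63 CPM to 32.1 and 30.1 CPM, by a log2 fold change of 1.57 (SE 0.17, adjusted p = 0.0033). Robo1 and Ntng2 had 0 counts in both CPN-/- CRY2 libraries, against 1.16 and 0.921 CPM and 0.314 and 0.499 CPM in CPN-/-, and were at least 9.42-fold lower and at least 3.67-fold lower. Both passed the filter on low counts through lines in which they were higher, so the list's count describes the tested genes. Plxnc1, a semaphorin receptor, rose from 23.5 and 16.4 CPM to 80.3 and 83.6 CPM, by a log2 fold change of 2.04 (SE 0.17, adjusted p = 0.0012), and Sema3d and Efna5 by log2 fold changes of 2.61 (SE 0.34, adjusted p = 0.0063) and 0.74 (SE 0.14, adjusted p = 0.028). The ephrin genes Efna2 and Efna3 fell by log2 fold changes of −1.605 (SE 0.21, adjusted p = 0.0062) and −1.48 (SE 0.17, adjusted p = 0.0037), and Sema6b and Ntn4 by log2 fold changes of −0.86 (SE 0.17, adjusted p = 0.034) and −1.32 (SE 0.30, adjusted p = 0.048).

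Matrix genes changed in both directions. Periostin, Postn, a matricellular protein of fibroblasts, rose from 526 and 437 CPM to 2807 and 3210.1 CPM, a log2 fold change of 2.64 (SE 0.16, adjusted p = 4.7e-04), which made it one of the most abundant called genes. The 3 chains of collagen VI rose together. Col6a1 went from 773 and 559 CPM to 1489.5 and 1445 CPM, Col6a2 from 274 and 195 CPM to 650.2 and 655 CPM and Col6a3 from 28.1 and 13.01 CPM to 57.6 and 58.4 CPM, with log2 fold changes of 1.14 (SE 0.16, adjusted p = 0.0092), 1.48 (SE 0.17, adjusted p = 0.0039) and 1.49 (SE 0.31, adjusted p = 0.037). Col6a3 has a transcript of 10106 bases and its CPN-/- libraries lay far apart. With the length trend removed the 3 values were 1.14, 1.43 and 1.23. Col11a1, a fibril-forming chain, rose from 67.8 and 45.3 CPM to 200.17 and 185 CPM, by a log2 fold change of 1.77 (SE 0.21, adjusted p = 0.0047), and 1.56 after removal. Col7a1, the anchoring fibril chain, fell by a log2 fold change of −0.91 (SE 0.15, adjusted p = 0.016). Col1a1 and Col1a2, which make up type I collagen, did not pass, at 0.49 (SE 0.19, adjusted p = 0.18) and 0.48 (SE 0.17, adjusted p = 0.15). The median of 27 collagen chains was 0.44 and fell to 0.24 after removal, beside −0.41 between the CPN-/- libraries, so that part of it moved with length.

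Among 37 laminins and matrix glycoproteins 5 fell and 4 rose (13.5% and 10.8%, beside 4.08% and 2.58% of all genes). The list median was 0.26 before and 0.10 after length removal, beside −0.49 between the CPN-/- libraries. Spp1, osteopontin, fell from 99.6 and 113 CPM to 19.4 and 16.8 CPM, a log2 fold change of −2.55 (SE 0.12, adjusted p = 2.6e-04). The fibulin genes diverged: Fbln1 fell from 5.38 and 4.11 CPM to 0.0367 and 0.148 CPM and Fbln2 from 10.5 and 8.02 CPM to 0.661 and 0.593 CPM, by log2 fold changes of −5.63 (SE 0.43, adjusted p = 9.4e-04) and −3.88 (SE 0.23, adjusted p = 4.4e-04), while Fbln5, needed for elastic fibres, rose from 231 and 225 CPM to 393 and 374 CPM, by a log2 fold change of 0.75 (SE 0.10, adjusted p = 0.0057). Lama5, a laminin chain with a transcript of 11388 bases, fell from 7.48 and 3.68 CPM to 0.514 and 0.408 CPM, by a log2 fold change of −3.60 (SE 0.43, adjusted p = 0.0047), against the length trend, and was at −3.91 after removal. Fbn2 had 3 and 1 counts in CPN-/- CRY2 and was 18.97 times (95% counting interval 7.13 to 71.3) higher in CPN-/-. Fmod and Dcn, small collagen-binding proteoglycans, rose by log2 fold changes of 1.96 (SE 0.36, adjusted p = 0.025) and 1.44 (SE 0.30, adjusted p = 0.039).

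Of 24 matrix proteases and inhibitors 5 fell and 2 rose (20.8% and 8.33%, beside 4.08% and 2.58% of all genes). Their median was −0.04 before and −0.10 after length removal. Mmp13 and Mmp19 fell by log2 fold changes of −2.38 (SE 0.30, adjusted p = 0.0056) and −0.66 (SE 0.09, adjusted p = 0.0092), Adamts2 and Adamts10 by log2 fold changes of −1.52 (SE 0.22, adjusted p = 0.0092) and −0.72 (SE 0.12, adjusted p = 0.015), and Mmp3, which lost its call with length removed, by a log2 fold change of −0.72 (SE 0.16, adjusted p = 0.046). Adamts1 rose from 99.4 and 82.4 CPM to 175 and 189 CPM, by a log2 fold change of 1.001 (SE 0.13, adjusted p = 0.0064), and Adamts6 by a log2 fold change of 1.28 (SE 0.23, adjusted p = 0.024). Leaving out CPN-/- CRY2 replicate 1 and replicate 2 left 0 and 1 lower and 0 and 0 higher protease genes, and leaving out CPN-/- replicate 1 and replicate 2 gave 8 and 9 lower and 12 and 6 higher. Of 20 integrin subunits 3 rose and 1 fell (15% and 5%, beside 2.58% higher and 4.08% lower over all genes). Their median was 0.20 before and 0.08 after length removal, beside −0.21 between the CPN-/- libraries. Itga8, a receptor for fibronectin and nephronectin, rose from 4.999 and 2.92 CPM to 32.4 and 31.7 CPM, by a log2 fold change of 3.00 (SE 0.22, adjusted p = 9.0e-04), and Itga1 and Itga10, both collagen receptors, rose from 14.1 and 8.79 CPM to 37.6 and 37.7 CPM and from 4.56 and 3.95 CPM to 8.49 and 8.78 CPM, by log2 fold changes of 1.71 (SE 0.21, adjusted p = 0.0047) and 1.02 (SE 0.15, adjusted p = 0.01). Itga7, a laminin receptor, fell by a log2 fold change of −0.59 (SE 0.12, adjusted p = 0.031). The cadherin list had 1 lower and 2 higher genes (7.69% and 15.4%, beside 4.08% and 2.58% of all genes). Its median was 0.35 before and 0.22 after length removal, beside −0.44 between the CPN-/- libraries. Of 13 cadherins, Cdh11, the fibroblast cadherin, fell from 137 and 100.01 CPM to 33.8 and 39.02 CPM, by a log2 fold change of −1.70 (SE 0.17, adjusted p = 0.0024), and Cdh13 and Cdh26 rose by log2 fold changes of 1.41 (SE 0.27, adjusted p = 0.029) and 0.79 (SE 0.11, adjusted p = 0.0093).

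**Figure D5:**
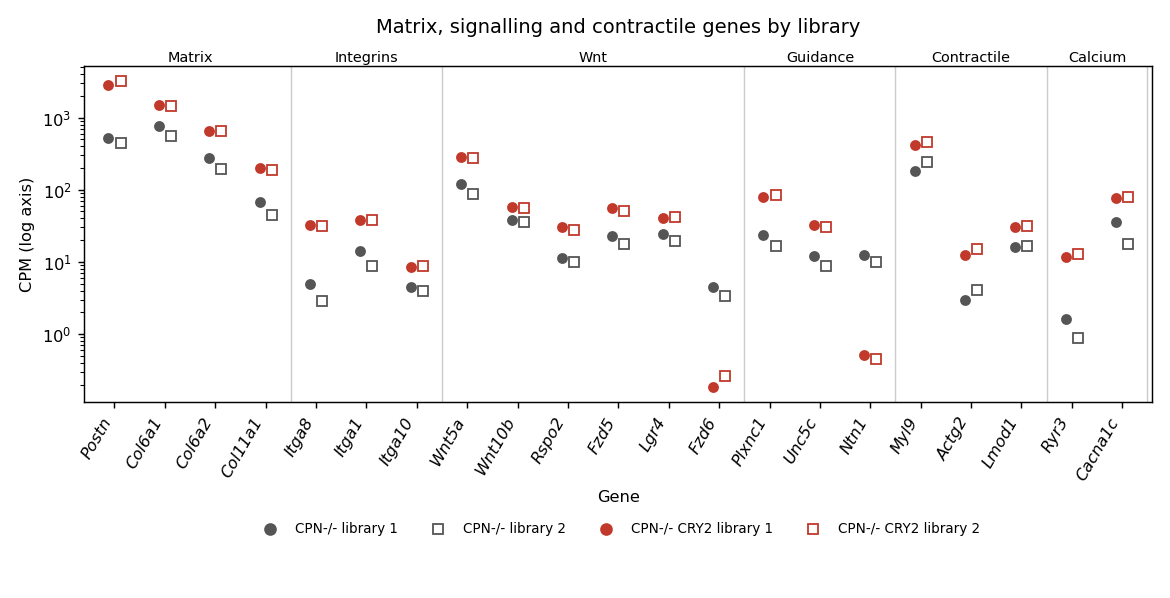
CPM on a log axis (vertical) of called matrix, integrin, Wnt, guidance, contractile and calcium genes (horizontal) in the 4 libraries, grey for CPN-/- and red for CPN-/- CRY2, with circles for library 1 and squares for library 2. Postn reached 2807 and 3210 CPM in CPN-/- CRY2 from 526 and 437 CPM, and Fzd6 and Ntn1 are the 2 genes whose red points lie below the grey.

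Genes of the contractile apparatus rose, 5 of 25 with 0 lower, beside 2.58% higher and 4.08% lower over all genes. Myl9, the regulatory light chain of smooth muscle myosin, rose from 181 and 243 CPM to 413 and 451 CPM, a log2 fold change of 1.03 (SE 0.15, adjusted p = 0.011). The actin genes Actg2 and Acta1 rose from 2.92 and 4.07 CPM to 12.6 and 15.2 CPM and from 0.723 and 0.844 CPM to 2.02 and 1.96 CPM, by log2 fold changes of 2.00 (SE 0.18, adjusted p = 0.0017) and 1.35 (SE 0.20, adjusted p = 0.01), and Lmod1 and Synpo2 by log2 fold changes of 0.91 (SE 0.10, adjusted p = 0.0034) and 1.599 (SE 0.26, adjusted p = 0.016). Acta2, the smooth muscle actin that marks myofibroblasts, did not pass, at 0.59 (SE 0.14, adjusted p = 0.051), and neither did Tagln, at 0.03 (SE 0.17, adjusted p = 0.92). Myl9, Actg2 and Acta1 have short transcripts of 1128 to 1446 bases, so that their rise ran against the length trend, and with it removed the list median went from 0.30 to 0.43, with 14 genes higher and 0 lower. Of the 25 genes 2 and 1 were higher with CPN-/- CRY2 replicate 1 and replicate 2 left out, and 13 and 15 with CPN-/- replicate 1 and replicate 2 left out. Of 19 calcium genes 2 rose and 1 fell (10.5% and 5.26%, beside 2.58% higher and 4.08% lower over all genes). The channel genes Ryr3 and Cacna1c rose from 1.63 and 0.883 CPM to 11.6 and 12.8 CPM and from 35.8 and 17.5 CPM to 76.9 and 78.8 CPM. Their log2 fold changes were 3.24 (SE 0.26, adjusted p = 0.0011) and 1.54 (SE 0.29, adjusted p = 0.027), and 2.84 and 1.19 after removal. Cacna1i fell by a log2 fold change of −3.28 (SE 0.45, adjusted p = 0.0083). The list median was 0.03 before and 0.09 after removal, beside −0.59 between the CPN-/- libraries.

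Hox genes record the position of a cell along the body axis, and imprinted genes are expressed from a single parental allele. Of 39 Hox genes 10 were tested. All 10 had a log2 fold change below 0, as did 7163 of the 14069 tested genes. The test called 3 of the 10 lower, beside 4.08% of all genes. Hoxa10 and Hoxc6 passed the filter on low counts through lines in which they were high, so these counts describe the tested genes and no more. Between the CPN-/- CRY2 libraries the 10 genes differed by a median of −0.53, library 2 minus library 1. Hoxa10 had 1 and 0 counts in CPN-/- CRY2 and was 89.9 times (95% counting interval 15.8 to 3588) higher in CPN-/-, Hoxc6 had 0 and 1 counts and was 20.6 times (95% counting interval 3.33 to 850.4) higher, and Hoxc13 fell from 1.603 and 1.69 CPM to 0.625 and 0.704 CPM, by a log2 fold change of −1.30 (SE 0.23, adjusted p = 0.019). The list median was −1.09 and −0.95 after length removal. Among imprinted genes 1 fell and 3 rose (6.67% and 20%, beside 4.08% lower and 2.58% higher over all genes). Their median was 0.36 before and 0.33 after length removal. Of 15 imprinted genes, H19, a long non-coding RNA, fell from 13.9 and 15.2 CPM to 0.184 and 0.296 CPM, by a log2 fold change of −5.90 (SE 0.24, adjusted p = 1.6e-04), and Plagl1 and Peg10 rose from 30.02 and 21.3 CPM to 65.99 and 65.9 CPM and from 16.1 and 9.98 CPM to 42.5 and 40.7 CPM, by log2 fold changes of 1.36 (SE 0.17, adjusted p = 0.0054) and 1.67 (SE 0.21, adjusted p = 0.0061), with Cdkn1c as the third that rose.

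Stress and degradation programs held few calls. The share called lower was 14.3% in the lysosome list, 7.41% for NRF2 targets and 5.56% for serine and one-carbon genes. It was near the 4.08% of all genes for the unfolded protein response (4%) and the ATF4 list (3.70%). Of the heat shock genes 4.35% were higher, beside 2.58% of all genes. Medians before and after length removal were −0.06 and 0.01 for lysosome genes and −0.12 and 0.01 for NRF2 targets. They were −0.17 and −0.02 for serine and one-carbon genes and −0.10 and −0.01 for the unfolded protein response. The ATF4 list had −0.19 and −0.09, and the heat shock genes 0.02 and −0.02. In the lysosome list 4 of 28 fell, the protease genes Ctsl and Ctsh and the glycosidase genes Glb1 and Gla, by log2 fold changes of −0.76 (SE 0.11, adjusted p = 0.0096), −0.91 (SE 0.14, adjusted p = 0.011), −0.51 (SE 0.10, adjusted p = 0.025) and −0.51 (SE 0.11, adjusted p = 0.046). Of 27 NRF2 and antioxidant targets the glutathione transferase genes Gsta4 and Mgst2 fell by log2 fold changes of −1.15 (SE 0.17, adjusted p = 0.011) and −1.93 (SE 0.32, adjusted p = 0.015). Xbp1 was the 1 of 25 unfolded protein response genes that fell, by a log2 fold change of −0.47 (SE 0.10, adjusted p = 0.043), and Cryab the 1 of 23 heat shock genes that rose, from 39.7 and 46.4 CPM to 71.4 and 82.4 CPM, by a log2 fold change of 0.84 (SE 0.13, adjusted p = 0.011). Cth, the transsulfuration enzyme that makes cysteine, went from 11.4 and 12.7 CPM to 1 count in each CPN-/- CRY2 library and was 324 times (95% counting interval 89.5 to 2685) higher in CPN-/-, the only call among 18 serine, one-carbon and transsulfuration genes. In the ATF4 list of 27 the only call was Vldlr, a lipoprotein receptor, which fell from 11.04 and 8.02 CPM to 0.478 and 0.296 CPM, by a log2 fold change of −4.61 (SE 0.29, adjusted p = 5.4e-04). Of 23 nuclear receptors Thra rose and Esrra fell, by log2 fold changes of 0.62 (SE 0.12, adjusted p = 0.03) and −0.59 (SE 0.12, adjusted p = 0.03). Each was 4.35% of the list, near the shares of 2.58% higher and 4.08% lower over all genes. The median of these receptors was 0.13 before and 0.13 after length removal. The 9 adenylyl cyclase and PDE4 genes held 0 calls by edgeR or DESeq2, and 0 at an unadjusted p under 0.05. Their median was 0.15 before and 0.14 after length removal. Outside the fibroblast markers, the adipocyte marker Fabp4 fell from 8.71 and 12.1 CPM to 2.39 and 1.82 CPM, by a log2 fold change of −2.30 (SE 0.23, adjusted p = 0.0026), and the neuronal marker Map2 rose from 82.1 and 60.7 CPM to 151 and 143 CPM, by a log2 fold change of 1.04 (SE 0.15, adjusted p = 0.0092). The other adipocyte markers, Adipoq, Plin1, Lep and Pparg, had 0 or 1 counts in each library. Among the other neuronal markers Syp had 17 and 23 counts in CPN-/- and 12 and 22 in CPN-/- CRY2. Tubb3 had 0 to 9 counts, Rbfox3 0 or 1 and Snap25 0. Neither Fabp4 nor Map2 therefore marks its cell type here.

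The lists held 197 of the 937 called genes, and the largest changes included others. Of the 12 largest decreases with a mean of at least 100 counts, Sirpa, an inhibitory receptor of the immunoglobulin family, fell from 16.6 and 14.1 CPM to 0.367 and 0.445 CPM, a log2 fold change of −5.23 (SE 0.22, adjusted p = 1.9e-04). Hpse, heparanase, had 2 and 0 counts in CPN-/- CRY2 and was 248 times (95% counting interval 68.4 to 2055) higher in CPN-/-. The prolactin family genes Prl2c2 and Prl2c3 had 2 or 3 counts in each CPN-/- CRY2 library and were 65.7 times (95% counting interval 29.9 to 180.1) and 90.8 times (95% counting interval 38.7 to 281) higher in CPN-/-, but they are close copies and reads may be split between them. Of the 12 largest increases, Platr7, a non-coding RNA, had 0 counts in both CPN-/- libraries and 23.4 and 23.6 CPM in CPN-/- CRY2, at least 224-fold higher against the floor. Apod, a lipid carrier, and Maf, a transcription factor gene, rose from 2.52 and 3.26 CPM to 16.4 and 21.1 CPM and from 2.11 and 1.34 CPM to 7.35 and 8.38 CPM, by log2 fold changes of 2.70 (SE 0.28, adjusted p = 0.0028) and 2.17 (SE 0.24, adjusted p = 0.0034). Cldn1, a tight junction gene, and Fat4, a giant cadherin, rose from 9.37 and 6.98 CPM to 39.3 and 33.6 CPM and from 38.2 and 14.8 CPM to 127 and 135 CPM, by log2 fold changes of 2.15 (SE 0.18, adjusted p = 0.0012) and 2.30 (SE 0.38, adjusted p = 0.016). Fat4 differed between the CPN-/- libraries in the direction of the length trend and was at 1.91 after removal. Pmfbp1 and Pstpip2 rose by log2 fold changes of 2.39 (SE 0.24, adjusted p = 0.0026) and 2.14 (SE 0.23, adjusted p = 0.0033). The non-coding gene D930015M05Rik (chr2:92408892-92432308) had 2.51 (SE 0.26, adjusted p = 0.0029), but it lies wholly within Cry2 (chr2:92403646-92434085, GRCm38.p6), and since the strand setting of the counting is not given in the sources used here, its reads cannot be told apart from those of Cry2. Of the named called genes 31 overlap another tested gene by position, and 11 of these overlap one called in the same direction, which besides this pair are Dbp, Efna3, Itga7, Itga8, Lss, Ntng2, Plod2, Pstpip2 and Ptger1; the same limit applies to them. Of the 12 increases 1 gene had no symbol in the tables used. By chromosome the median log2 fold change lay between −0.17 (chromosome 19) and 0.11 (chromosomes 3 and 10), and between −0.09 and 0.14 with the length trend removed.

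CPN-/- CRY2 was last compared with CPN-/- CRY1 directly, since both share the CPN-/- libraries when each is set against them. In this comparison 1086 genes were lower (7.72%) and 1206 higher (8.57%) in CPN-/- CRY2. Among chemokines 0 of 14 genes passed in edgeR's test in either direction, 2 were lower and 3 higher at an unadjusted p under 0.05, and DESeq2 called 1 higher. There Cxcl1 was at 0.775 and 1.26 CPM in CPN-/- CRY1, with a direct difference of −0.60 (SE 0.29, adjusted p = 0.22). Among cholesterol genes 2 were higher and 1 lower of 25. MHC class I differed, with 11 of 20 lower and 0 higher in CPN-/- CRY2. H2-K1 was at 36.6 and 30.6 CPM and Psmb8 at 4.76 and 3.80 CPM in CPN-/- CRY1, with direct differences of −2.66 (SE 0.14, adjusted p = 2.7e-04) and −4.03 (SE 0.39, adjusted p = 0.0013), and Nlrc5 was at 21.4 and 20.95 CPM, with −3.65 (SE 0.16, adjusted p = 1.2e-04). Of the 54 interferon-stimulated genes 20 were lower and 3 higher. Of the 30 HIF targets 9 were higher and 6 lower in CPN-/- CRY2, Ndrg1 by 1.30 (SE 0.10, adjusted p = 5.5e-04) and Egln3 by −0.46 (SE 0.11, adjusted p = 0.035). Of the 21 clock activators and outputs 9 were higher and 1 lower, with Ciart at 3.79 and 3.60 CPM there and a difference of 1.90 (SE 0.13, adjusted p = 3.7e-04). Periostin was at 584 and 478 CPM in CPN-/- CRY1, with 2.50 (SE 0.16, adjusted p = 3.5e-04), and Gas6 at 1.33 and 1.46 CPM, with 3.89 (SE 0.15, adjusted p = 8.6e-05).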

How the data were processed

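Polyadenylated RNA of CPN-/-, CPN-/- CRY2 and CPN-/- CRY1 cells was sequenced from stranded TruSeq libraries as paired reads on a HiSeq 4000. The authors used RNA STAR and mm10 for alignment and featureCounts for counting, and they deposited raw counts per gene, 1 column per library. The gene annotation, the strand setting and the treatment of reads with several matches are not given in the sources used here. Libraries were grouped by their sample titles. Libraries held 25957409 to 36106949 counts. Gene names and promoters came from the RefSeq tables for GRCm38.p6, which named all but 726 of the 14069 tested genes. Transcript lengths were those of the longest GENCODE transcript of a gene, known for 94.15% of the tested genes.

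Genes were filtered with filterByExpr (minimum count 10, minimum total 15), scaled with TMM and fitted with cell line as the factor over all 6 libraries in edgeR 4.0.16 (R 4.3.3, robust quasi-likelihood fit). Adjusted p-values are Benjamini-Hochberg values over all tested genes, with a threshold of 0.05, and SEs were derived from the F statistic as |log2 fold change| over its square root. For the length trend, a loess curve (span 0.5, degree 1) of each library against log2 transcript length entered the fit as an offset. Medians of library pairs are on the log2 CPM scale. Where both CPN-/- CRY2 libraries had 0 counts, a bound was computed against 3 counts per library. For genes with 1 to 3 counts in such a library a ratio of summed counts with a 95% interval is given, which covers counting error only. The fit was also run on simulated counts with the same dispersion for all genes and, where a length trend was added, with it in the CPN-/- libraries only. The outcome is not given, and no result here rests on it. Alternatives were RLE, upper-quartile and library size scaling, 2 count filters, the 4 libraries alone, a replicate block, removal of length and GC content, DESeq2 1.42.0, stricter thresholds and leaving out each library.

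The gene lists and members were chosen with earlier results of these data known, and no p is given for a list. Named genes are the targeted genes, the 12 largest changes in each direction among calls whose mean count reached 100, with no overlap between the lines, and called list members. Members that did not pass are given as values. Some genes, which remain in the counts and medians, are not reported here.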

Additional observations from a re-analysis of the deposited data

Results flagged for a closer look

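For 17 of the 212 named called genes the CPN-/- CRY2 and CPN-/- CRY1 lines were called in opposite directions against the CPN-/- libraries they share, and edgeR's direct test between the CRY lines passed. Over all genes 52 were lower in CPN-/- CRY2 and higher in CPN-/- CRY1 in this way, and 40 the reverse. The values given for genes below are log2 differences of CPN-/- CRY2 minus CPN-/- CRY1. Each CRY line is 1 selected colony, so the CRY protein and the colony cannot be told apart.

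Lower in CPN-/- CRY2 and higher in CPN-/- CRY1 were Sp100, an interferon-induced nuclear body gene, with a difference of −4.08 (SE 0.26, adjusted p = 3.6e-04), and Nlrc5, the MHC class I transactivator, with −3.65 (SE 0.16, adjusted p = 1.2e-04). The matrix protease genes Adamts2 and Adamts10 differed by −2.42 (SE 0.20, adjusted p = 7.7e-04) and −1.19 (SE 0.12, adjusted p = 0.0013). The p53 target Pmaip1 was at 0.534 and 0.691 CPM in CPN-/-, 0.0367 and 0.185 CPM in CPN-/- CRY2 and 1.77 and 1.78 CPM in CPN-/- CRY1, a difference of −3.95 (SE 0.45, adjusted p = 0.0023). Hoxc13 and Hoxc6 differed by −3.90 (SE 0.19, adjusted p = 1.6e-04) and −5.24 (SE 0.62, adjusted p = 0.0026), the BMP receptor gene Bmpr1b by −8.13 (SE 0.50, adjusted p = 3.4e-04) and the netrin G gene Ntng2 by −8.17 (SE 0.999, adjusted p = 0.0053). Hoxc6, Bmpr1b and Ntng2 had 0 or 1 counts in the CPN-/- CRY2 libraries, so these differences depend on the prior count and are no bounds. Cry1 itself differed by −1.84 (SE 0.11, adjusted p = 3.2e-04), the CPN-/- CRY1 line carrying a Cry1 vector.

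Higher in CPN-/- CRY2 and lower in CPN-/- CRY1 was Cry2, by 2.77 (SE 0.10, adjusted p = 8.6e-05). On the same side the matrix genes Dcn and Col11a1 differed by 4.36 (SE 0.43, adjusted p = 0.0013) and 4.32 (SE 0.24, adjusted p = 2.7e-04), with Col11a1 at 67.8 and 45.3 CPM in CPN-/-, 200.17 and 185 CPM in CPN-/- CRY2 and 10.9 and 8.27 CPM in CPN-/- CRY1. Gas6, the TAM receptor ligand, differed by 3.89 (SE 0.15, adjusted p = 8.6e-05) and Pmfbp1 by 8.53 (SE 0.47, adjusted p = 2.7e-04). Dcn had 6 and 1 counts and Pmfbp1 1 and 0 counts in the CPN-/- CRY1 libraries, so their differences also depend on the prior count. D930015M05Rik differed by 3.53 (SE 0.28, adjusted p = 6.0e-04), but it lies wholly within Cry2 and the strand setting of the counting is not given in the sources used here, so its reads cannot be told apart from those of Cry2.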

How the results depend on the processing

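None of the 937 called genes changed sign under any of the 17 refits in which it was tested, whereas the number of calls varied. Of the 937, 937 were also called with RLE scaling, 895 with library sizes alone, 893 by DESeq2 and 857 with the replicate block. With the replicate block 977 genes were called; the replicate numbers did not pair the libraries (correlation of deviations 0.12 between CPN-/- and CPN-/- CRY2). The total moved to 583 with at least 10 counts in every library (329 lower), 473 with the 4 libraries alone (326 lower, 147 higher), 363 at an adjusted p under 0.01 (249 and 114) and 526 when the log2 fold change also had to reach 1 (368 and 158). It was 2329 with the length trend removed (910 and 1419), 2352 with length and GC content removed (897 and 1455) and 2477 with the replicate block and length removed (966 and 1511). DESeq2 called 632 higher genes. Leaving out a library gave 199 to 8046 genes, 143 to 3994 lower and 54 to 4052 higher. Between the CRY lines, the total of 2292 moved to 4245 with length removed, 4409 with length and GC content removed, 4263 with the replicate block and length removed, 854 at an adjusted p under 0.01, 828 when the log2 fold change also had to reach 1, and 475 to 6897 without a library. The log2 fold change of Nr1d1, a gene that did not pass, ranged from −0.0017 to 0.16 when a library was left out, the former without CPN-/- replicate 2. Of the 212 named genes that passed, 82 and 84 did so without CPN-/- CRY2 replicate 1 and replicate 2. The causes of these shifts were not tested.

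With 2 preparations per line and a length trend of their own, the CPN-/- libraries limit what small differences can be read, and lists of uniformly short or long genes cannot be read at all from the unadjusted comparison. Genes with a handful of counts have intervals that cover counting error only.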

Other observations

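The chromosomes were compared as values. The median log2 difference of CPN-/- CRY2 minus CPN-/- CRY1 was −0.46 on chromosome 19 and −0.35 on chromosome 16, and 0.43 on chromosome 15 and 0.40 on chromosome 3. Against CPN-/- the medians of CPN-/- CRY2 on the same chromosomes were −0.17, −0.09, 0.05 and 0.11, and those of CPN-/- CRY1 were 0.31, 0.27, −0.36 and −0.28. Hoxc6 and Hoxc13 lie on chromosome 15.

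The kappa-B core was not the only element searched. The ISRE core GAAANNGAA was in 6.93% of the promoters of tested genes, 6.67% of those of lower and 8.21% of those of higher genes. The CRE TGACGTCA was in 2.96%, 1.44% and 0.608%, the CARE core TGATGNAA in 2.31%, 2.34% and 2.74%, and the D-box TTATGTAA in 0.483%, 0.541% and 0.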
